A study of Mus musculus with 16 samples.

Results

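Cells carrying a CD11c reporter and sorted from mouse spleen were set against control microglia sorted from mouse brain, over all genes of the deposited count table. Membership followed the sample names: the 4 CD11c-eYFP spleen libraries and the 4 control microglia libraries were taken, which makes 8 of the 16 bulk RNA libraries of the series. The other 8 libraries, 4 of CD11c-eYFP+ cells and 4 of CX3CR1+ microglia, came from ischemic brain. They entered the same model fit, and so the estimate of spread behind every SE and p-value. Below, they serve to place a value and for a contrast of brain with spleen CD11c cells. The stated aim of the series was to find the genes that set CD11c+ cells entering the ischemic brain apart from microglia, and the contrast described here joins the 2 populations that came from elsewhere than the ischemic hemisphere.

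The spleen libraries came from male mice of the line Tg(Itgax-Venus)1Mnz, labelled CD11c-eYFP+, with no disease state in their labels. In this line the promoter of Itgax, the gene of CD11c, drives a yellow fluorescent protein. The sort thus aims at cells in which that promoter is or was active, whatever their type. The purity of the sort was not tested here. The control microglia came from brains labelled control, of male mice of the genotype CX3CR1CreERT2:Rosa26-tdT, in which a Cre recombinase made from the Cx3cr1 locus and activated by tamoxifen switches on the red protein tdTomato. Tamoxifen dosing is not given in the sources used here. Mice of both groups were 13 to 14 weeks old. Sorting used the reporter alone with no antibody, and the written protocol describes the enzymatic and Percoll steps for brain only. Mouse line, organ, reporter and cell population all differ between the groups and cannot be told apart. The labels do not say whether libraries are separate animals. Every p-value here rests on the spread between libraries of a group, estimated over all 16 libraries, which may be partly technical.

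Dendritic cells take up antigen, display peptides on major histocompatibility complex (MHC) class II molecules and prime T cells. The conventional ones arise from bone marrow precursors that depend on the receptor FLT3, and in the spleen they divide into type 1 cells, which cross-present to CD8 T cells, and type 2 cells, many of which need NOTCH2 signals. Microglia are macrophages seeded in the embryonic brain. They depend on the receptor CSF1R and on transforming growth factor beta (TGF-beta), express the transcription factor SALL1, and clear synapses, debris and dying cells. CD11c, the integrin alpha X chain, is used as a dendritic cell marker but is also made by other spleen cells, including macrophages, some monocytes and some B cells.

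Depth was alike in both groups. The 8 libraries held 34087982 to 48245164 counted reads and 19377 to 22169 genes with a count. Mitochondrial genes took 1.38 to 1.76% of the reads in spleen and 0.916 to 1.17% in control libraries. Correlations of log2 CPM, the counts of a gene scaled to the size of its library, across genes were 0.980 to 0.990 among spleen libraries, 0.987 to 0.992 among control libraries and 0.712 to 0.743 between the groups. CPM values below are scaled with edgeR's TMM factors, which ran from 1.062 to 1.225 in spleen. Differences are log2 (spleen minus control) ± SE with p-values from edgeR's quasi-likelihood test, adjusted by the Benjamini-Hochberg method over all 16345 genes tested, and a gene is called at an adjusted p under 0.05.

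The reporter's own gene separated the groups. Itgax (chromosome 7, 128129547 to 128150657, GRCm38) stood at 742, 553, 649 and 347 CPM in spleen replicates 1 to 4 and at 26.6, 27.5, 34.6 and 32.7 CPM in control replicates 1 to 4. Every spleen library lay above every control library, with spleen replicate 4 the lowest of its group (log2 4.24 ± 0.33, adjusted p = 1.08e-08). Cx3cr1, the fractalkine receptor gene whose locus carries the other reporter, ran the opposite way, at 37.5, 27.4, 30.5 and 21.2 CPM in spleen and 2848, 3357, 3186 and 3119 in control libraries (log2 -6.75 ± 0.18, adjusted p = 2.59e-14). Because these genes drive the sorts, both differences are checks of the labels and no finding.

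The 2 populations differed over most of the transcriptome. Of 16345 genes tested, 6059 were higher in spleen CD11c cells (37.1%) and 5186 were lower (31.7%), so 68.8% were called. At 2-fold or more, 3901 genes were higher (23.9%) and 3274 lower (20.0%). All 4 spleen libraries lay above all 4 control libraries for 38.4% of the genes and below them for 32.5%. The median log2 difference over all tested genes was 0.11. Scaling by library totals moved that median to 0.34 and the share of calls that were higher from 53.9% to 63.9%, so a small difference has to be read against that shift. The gene lists used below were chosen by known roles, but with earlier results of these data known, so their counts are a description. Each count of called members is to be set beside 37.1% for higher and 31.7% for lower calls.

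Genes of homeostatic microglia marked the control side. All 20 of the 20 tested were lower in spleen CD11c cells, with a median log2 difference of -8.17. Sall1, the transcription factor that holds microglial identity, was at 0.0995, 0.149, 0.124 and 0.162 CPM in spleen and 1012, 1018, 1081 and 943 in control libraries. The spleen values rest on 24 reads over 4 libraries. Tmem119, a microglial surface protein, stood at 0.935 to 1.67 CPM against 2483 to 3304 (log2 -11.21 ± 0.24, adjusted p = 3.57e-15). P2ry12, the ADP receptor that steers microglial processes, stood at 34.5, 21.3, 29.2 and 34.2 CPM in spleen and 4811, 5356, 4831 and 4172 in control libraries. Its spleen level was thus low but not absent, and the groups were far apart (log2 -7.33 ± 0.27, adjusted p = 7.2e-13). The smallest difference in the list was that of Bin1, an endocytic adaptor (log2 -2.97 ± 0.13), and Csf1r itself kept 942 to 1383 CPM in spleen libraries against 12436 to 13735 in control libraries. The fructose transporter gene Slc2a5 was lower, with log2 -12.18. Without spleen replicates 1 and 4 the median of the list was -8.77.

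Genes of conventional dendritic cells marked the spleen side. All 20 of 20 were higher (median log2 5.93). Flt3, the receptor that dendritic cell precursors need, was at 236, 185, 291 and 122 CPM in spleen and 1.12, 1.84, 2.12 and 2.11 in control libraries (log2 6.85 ± 0.48, adjusted p = 4.06e-09). Zbtb46, a transcription factor largely restricted to conventional dendritic cells, was at 96.2, 72.4, 79.1 and 45.4 against 4.72, 7.15, 6.56 and 5.52 CPM (log2 3.61 ± 0.29, adjusted p = 1.6e-08). In both genes the groups did not overlap and spleen replicate 4 was the lowest of the spleen libraries. The receptor tyrosine kinase Kit (94.6 to 197 against 0.514 to 0.922 CPM), the peptidase Dpp4 (log2 6.86 ± 0.44) and the inhibitory receptor Btla (log2 9.26 ± 0.51) followed the same direction. Btla and the transcription factor gene Bcl11a are also made by B cells, whose markers were high in these libraries.

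**Figure D1:**
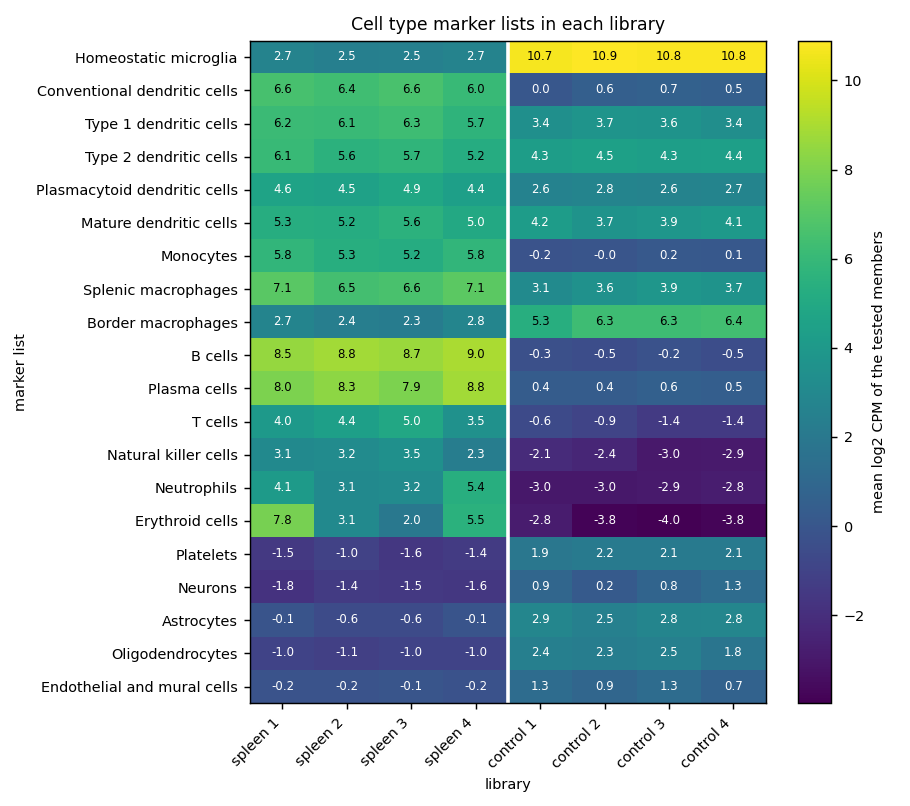
Heat map of 20 cell type marker lists (rows) in the 4 spleen CD11c and 4 control microglia libraries (columns); each cell is the mean log2 CPM of the list's tested members, given as a number and as colour. Homeostatic microglia genes score 10.70 to 10.89 in control and 2.47 to 2.68 in spleen libraries, and B cell genes 8.53 to 8.98 in spleen and -0.46 to -0.23 in control libraries.

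Markers of the dendritic cell subsets were split. Of 14 type 1 genes, 8 were higher and 2 lower. Xcr1, the chemokine receptor of cross-presenting cells, stood at 38.5, 31.1, 38.0 and 12.8 CPM in spleen and 0.275, 1.92, 1.15 and 0.462 in control libraries (log2 4.97 ± 0.58, adjusted p = 1.55e-06). Clec9a, which senses actin of dead cells, stood at 28.9 to 60.3 against 0.375 to 1.77 CPM. The 2 lower genes were Irf8 (log2 -0.60 ± 0.13) and Tlr3 (log2 -1.75 ± 0.14), both of which microglia also use. Without control replicate 2, the log2 difference of Xcr1 was 5.57. Gcsam, which germinal centre B cells also make, was higher by log2 7.38. Cd8a, the CD8 alpha chain that type 1 cells of the spleen share with T cells, was at 24.2 to 65.0 against 0.0617 to 0.550 CPM.

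Of 16 type 2 genes, 9 were higher and 7 lower.  Esam, an adhesion molecule, stood at 30.9, 24.8, 34.0 and 14.5 CPM in spleen and 0.725, 0.435, 0.535 and 0.347 in control libraries (log2 5.66 ± 0.57, adjusted p = 2.73e-07). Dtx1, a target of Notch signals that B cells of the marginal zone also express, was at 163 to 244 against 0.500 to 0.867 CPM, and the lectin gene Clec4a4 at 15.7 to 37.3 against 0.433 to 0.750. Cd4, made by these cells and by helper T cells, was at 194, 123, 176 and 64.4 CPM in spleen libraries, with replicate 4 the lowest and still above all control libraries (8.10 to 22.3). On the lower side, Itgam, the CD11b chain, stood at 38.9, 35.7, 25.7 and 23.6 CPM in spleen and 761, 672, 747 and 751 in control libraries (log2 -4.56 ± 0.20, adjusted p = 4.44e-12). Type 2 dendritic cells carry CD11b, and so do microglia. Klf4 (log2 -3.60 ± 0.28), Mgl2 (log2 -3.36 ± 0.50) and Sirpa (log2 -1.65 ± 0.12) were lower as well. Cd7 differed most on the higher side (log2 9.64 ± 0.44), a gene that T and natural killer cells share.

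Of 15 plasmacytoid dendritic cell genes, 7 were higher and 5 lower. Siglech, shared by plasmacytoid cells and microglia, was at 7.06 to 17.7 CPM in spleen against 1326 to 1527 in control libraries. Spib and Ly6d were higher (log2 12.18 ± 0.38 and 13.13 ± 0.80), and both are also B lineage genes. Without control replicate 3 the difference of Ly6d was 14.36. The gut homing receptor Ccr9 was higher (log2 6.85 ± 0.54) and Cox6a2 lower (log2 -1.96 ± 0.32). Without control replicate 2 the difference of Ccr9 was 7.57. Klk1 was at 0.278 to 1.11 CPM in spleen and had no read in the 4 control libraries. Of 17 genes of mature dendritic cells, 9 were higher and 6 lower. Ccr7, which guides migration to T cell zones, was at 111, 115, 146 and 85.3 CPM in spleen and 2.15, 1.18, 1.11 and 1.13 in control libraries (log2 6.36 ± 0.35, adjusted p = 1.9e-10), while Cd83 and Fscn1 were lower in spleen (log2 -3.03 ± 0.25 and -2.95 ± 0.24). Socs2, an inhibitor of cytokine signals, was higher by log2 4.58.

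Transcripts of B cells and plasma cells were abundant in every spleen library. All 16 of 16 B cell genes were higher (median log2 11.88, and 10.63 with genes absent from a group set at their bound). Ms4a1, the CD20 antigen, stood at 587, 724, 729 and 741 CPM in spleen and 0.0750, 0, 0.0823 and 0 in control libraries. Cd79a, part of the B cell receptor, stood at 336 to 498 against 0.0256 to 0.0617 CPM. Ighm, the heavy chain of IgM, stood at 27432, 42027, 17749.5 and 75910.5 CPM in spleen replicates 1 to 4. Immunoglobulin genes together took 10.2, 12.6, 7.71 and 21.7% of all reads in spleen replicates 1 to 4 and 0.0568 to 0.0653% in control libraries. In bulk RNA a larger share of cells of a type and more RNA per cell cannot be told apart, and plasma cells hold very large amounts of immunoglobulin RNA.

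Of 10 plasma cell genes, 8 were higher and none lower. Jchain, the joining chain of secreted IgA and IgM, was at 4702, 5075, 3863 and 7508 CPM in spleen and 0.400, 0.282, 0.493 and 0.578 in control libraries (log2 13.55 ± 0.97, adjusted p = 6.2e-09). Ighg1, a heavy chain of IgG, was at 74.7, 321, 248 and 204 CPM in spleen, highest in replicate 2. Mzb1, a chaperone for immunoglobulin chains, was at 288 to 586 against 0 to 0.102 CPM. The heavy chain of IgA, Igha, was at 12389.7, 6226, 9148 and 6775 CPM in spleen, highest in replicate 1, whereas Ighg2c was highest in replicate 4 (858, 2805, 1447 and 5030.3). Prdm1 and Tnfrsf17 were not called (log2 0.28 and -0.23, adjusted p = 0.378 and 0.511). Control microglia held 535 to 625 CPM of Ighm although Igkc, the kappa light chain, was at 1.62 to 1.95 and Cd79a at 0.0256 to 0.0617 CPM.

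Of 15 splenic macrophage genes, 11 were higher and 2 lower (median log2 2.59). Spic, the transcription factor of red pulp macrophages, stood at 269, 217, 247 and 224 CPM in spleen and 1.45, 2.13, 2.02 and 2.17 in control libraries (log2 6.95 ± 0.23, adjusted p = 2.64e-13). Vcam1, the adhesion molecule of these cells, was at 1515, 996, 1347 and 1692 against 122, 97.4, 86.5 and 149 CPM, and the iron exporter Slc40a1 at 1218 to 1698 against 231 to 272. Hmox1, which breaks down heme, was at 1333, 859.8, 832 and 1099.5 CPM in spleen and 285, 205, 276 and 344 in control libraries (log2 1.89 ± 0.37, adjusted p = 0.000321). None of these 4 genes overlapped between the groups, and none was at 0 in microglia. C6, a late complement component, Cd5l, a secreted protein of macrophages, and Marco, a scavenger receptor of the marginal zone, were higher by log2 9.76, 8.15 and 6.07. Without control replicate 3 the difference of Marco was 7.28. Adgre1, the F4/80 antigen, and Siglec1 were lower in spleen (log2 -0.94 ± 0.25 and -0.91 ± 0.38, adjusted p = 0.0444 for the second). The call of Siglec1 was lost without spleen replicate 2 or 3 or without control replicate 2, 3 or 4, with log2 differences of -0.86 to -0.74.

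Of 15 monocyte genes, 14 were higher (median log2 6.16). Ly6c2 stood at 28.3 to 50.3 CPM in spleen and 0.0206 to 0.30 in control libraries, and Treml4 and Cd300e, genes of non-classical monocytes, at 165 to 252 and 55.3 to 89.0 CPM against at most 0.740 and 0.154. F13a1 was the exception (log2 -3.88 ± 0.59), a gene that border macrophages of the brain also make. Chil3 was at 9.75 to 107 CPM and the haptoglobin gene Hp at 13.2 to 44.6 CPM in spleen, with at most 0.0411 and 0.0289 CPM in any control library. Of 12 neutrophil genes, 11 were higher and 1, Csf3r, was lower (log2 -2.90). S100a8 was at 115, 53.5, 70.1 and 234 CPM in spleen replicates 1 to 4, highest in replicate 4, with 3 reads in all control libraries together. Ly6g, the defining neutrophil antigen, was at only 0.276 to 1.88 CPM. Retnlg, another neutrophil gene, was at 11.8, 8.41, 9.51 and 41.2 CPM in spleen libraries. T cell and natural killer cell genes were called higher in 13 of 14 and 10 of 10, at low levels: Cd3e stood at 14.3, 16.4, 21.4 and 8.06 CPM and Ncr1 at 4.26, 4.38, 5.16 and 2.20 CPM in spleen libraries. Tcf7 and Cd3d of T cells were higher by log2 8.21 and 7.62, and Prf1 and Il2rb of natural killer cells by 8.10 and 7.04. Without control replicate 2 the differences of Tcf7 and Cd3d were 8.84 and 8.22, and without control replicate 1 those of Il2rb and Cd3d were 8.23 and 8.21. Themis was at 3.31 to 8.81 and Klra8 at 1.27 to 3.26 CPM in spleen, with 3 reads and none in the control libraries.

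Haemoglobin RNA set 1 library apart. Hbb-bs, an adult beta globin gene, was at 2089.9, 54.5, 32.5 and 268 CPM in spleen replicates 1 to 4 and at 0.375, 0.0512, 0.0411 and 0.0578 in control libraries (log2 12.17 ± 1.60, adjusted p = 7.75e-06). Without spleen replicate 1 that difference was 9.80, without control replicate 1 it was 13.54, and without spleen replicates 1 and 4 it was 8.28. Haemoglobin genes took 0.39, 0.0104, 0.00617 and 0.0446% of all reads in spleen replicates 1 to 4. The 2 beta and 2 alpha globin genes are near-identical copies, so their split is uncertain. Spleen replicates 1 and 4 both scored above replicates 2 and 3 in the erythroid, neutrophil, splenic macrophage and monocyte lists. The erythroid scores were 7.85 and 5.53 in replicates 1 and 4, against 3.06 and 1.99 in replicates 2 and 3. Replicate 1 was the highest in erythroid genes. Replicate 4 was the highest in plasma cell and neutrophil genes and had the lowest dendritic cell scores. Leaving out spleen replicates 1 and 4 gave 5182 higher and 5013 lower genes, a comparison added after seeing the data. Most markers of these other spleen cell types moved with the group, and their part in the differences of shared genes below was not tested.

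**Figure D2:**
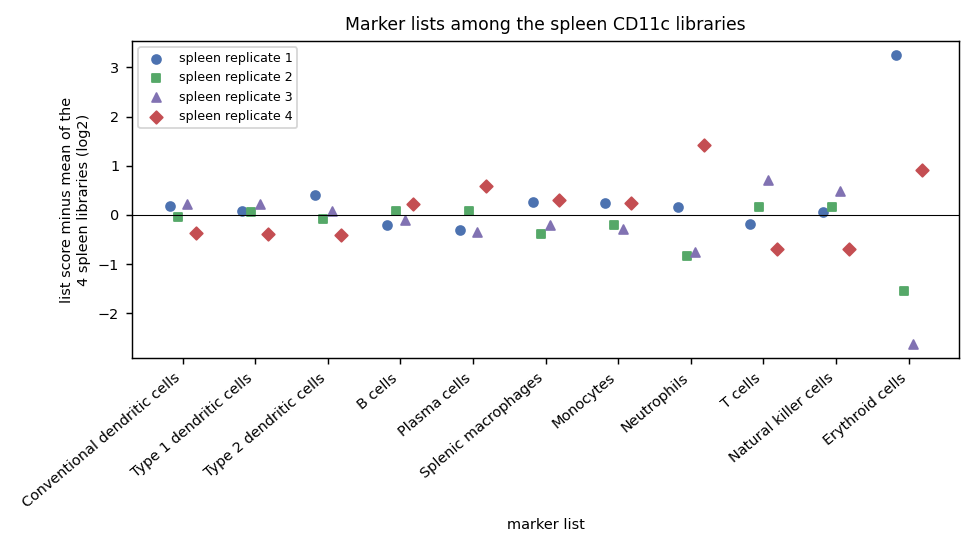
Score of 11 marker lists in each spleen CD11c library (mean log2 CPM of the tested members) minus the mean of the 4 spleen libraries, in log2 units; symbols are replicates 1 to 4. The erythroid list spreads from -2.62 in replicate 3 to 3.25 in replicate 1, and the neutrophil list from -0.84 in replicate 2 to 1.42 in replicate 4, whereas conventional dendritic cell genes stay within -0.37 to 0.23.

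The control libraries held low levels of brain tissue RNA. Of 13 neuron genes 10 were lower in spleen, of 12 oligodendrocyte genes 10, and of 9 astrocyte genes 7. Camk2a, a kinase of excitatory neurons, was at 34.1, 23.2, 29.3 and 44.6 CPM in control and 7.29, 10.2, 9.73 and 10.5 in spleen libraries, and the groups did not overlap. Snap25 and Mobp, of neurons and oligodendrocytes, stood at 3.56 to 6.47 and 4.33 to 12.5 CPM in control libraries and had no read in the 4 spleen libraries. Nefl and Gad2 of neurons and Mog of oligodendrocytes also had no read in spleen and stood at 0.512 to 2.05, 0.165 to 0.491 and 0.867 to 1.77 CPM in control libraries. Syt1 of neurons, Olig1 of oligodendrocytes and Gfap, Gjb6 and Slc1a2 of astrocytes were lower, with log2 -5.26, -6.16, -4.69, -4.63 and -4.32. The difference was -6.46 for Syt1 without spleen replicate 3, -5.59 for Gfap without spleen replicate 4 and -6.24 for Gjb6 without spleen replicate 1. S100b and Cldn11 were at 3.12 to 5.58 and 1.24 to 2.67 CPM in control libraries, with 1 and 2 reads in spleen, while Cnp was higher in spleen (log2 1.28). Of 11 endothelial and mural genes, 5 were lower and 2 higher, with Cldn5 and Tek (log2 -4.97 and -3.27) on one side and Vwf and Pecam1 (log2 2.83 and 1.63) on the other. Without spleen replicate 4 the difference of Tek was -4.07. Slco1a4 and Rgs5 were at 0.953 to 2.12 and 2.34 to 2.71 CPM in control libraries, with 0 and 1 reads in spleen. Of 5 platelet genes, Pf4, Gp9 and Treml1 were lower (log2 -7.66, -7.30 and -6.32) and Itga2b higher (log2 1.48). Border macrophage genes were lower in 7 of 12. Lyve1, a hyaluronan receptor of perivascular and meningeal macrophages, was at 18.3, 48.3, 51.9 and 49.5 CPM in control replicates 1 to 4, with replicate 1 the lowest, and at 0.0425 to 0.116 in spleen libraries. Cd209f was at 7.25 to 18.9 CPM in control libraries with 1 read in spleen, and Cd38 and Clec4n, which other myeloid and B cells make, were higher by 3.51 and 2.44. The sort on Cx3cr1 does not separate such macrophages from microglia.

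**Figure D3:**
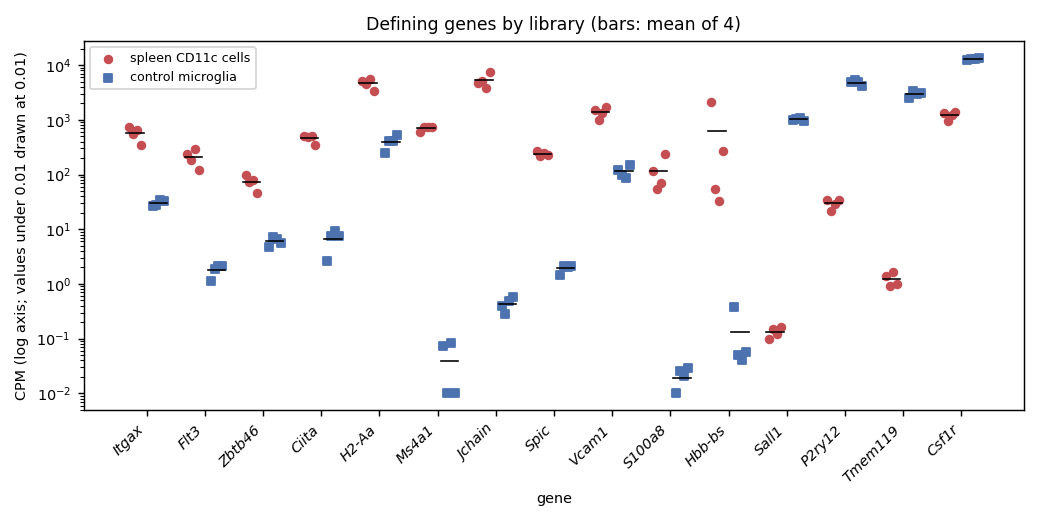
CPM on a log axis of 15 defining genes in each library, with circles for spleen CD11c cells, squares for control microglia and bars for group means; values under 0.01 are drawn at 0.01. The groups overlap in none of the 15 genes, and within spleen the widest spread is that of Hbb-bs.

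Of 20 macrophage factors, 16 were lower in spleen CD11c cells and 3 higher. Below Sall1 and Sall3, the largest falls were those of Cebpa (log2 -4.59 ± 0.16) and Cebpb (log2 -4.14 ± 0.26), which direct myeloid differentiation. Maf and Mef2a were lower, with log2 -2.74 and -2.88. The higher ones were Nr1h3, the oxysterol sensor LXR alpha (log2 5.58 ± 0.42), Pparg (log2 5.42 ± 0.42) and Tfec (log2 2.05 ± 0.43). Nr1h3, which marginal zone macrophages of the spleen need, stood at 100.4, 67.8, 74.0 and 87.1 CPM in spleen and 1.60, 1.74, 1.73 and 1.82 in control libraries. Spi1, the myeloid factor PU.1, was also lower (log2 -0.99 ± 0.12), although both populations held it (131 to 199.5 and 314 to 371 CPM).

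Of 20 factors of dendritic cells, 10 were higher and 5 lower. Irf4, needed by type 2 dendritic cells and by plasma cells, was at 206, 217, 203 and 286 CPM in spleen and 34.0, 18.1, 19.1 and 23.5 in control libraries (log2 3.27 ± 0.30, adjusted p = 1.07e-07), highest in spleen replicate 4. Ikzf3 (log2 10.43 ± 0.62) and Spib were among the larger differences and belong to B cells too. Batf3, required by type 1 cells, overlapped between the groups, at 38.0, 28.1, 36.1 and 17.5 CPM in spleen and 12.6, 18.9, 16.3 and 18.1 in control libraries (log2 0.86 ± 0.33, adjusted p = 0.0288). Its call was lost without spleen replicate 1 or 3 or without control replicate 1 (log2 0.73, 0.77 and 0.79). Nfil3 was lower (log2 -2.16). Tcf4, Id2, Ikzf1, Bcl6 and Batf were not called. Without control replicate 1, Id2 and Batf passed the test as higher (log2 0.97 and 0.69, adjusted p = 0.00055 and 0.0116).

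Most genes of MHC class II presentation were higher in spleen CD11c cells. Of 16 genes, 13 were higher, 1 was lower and 2 were not called (median log2 2.82). H2-Aa, the class II alpha chain, was at 5208, 4429, 5573 and 3292 CPM in spleen and 252, 405, 409 and 527 in control libraries (log2 3.54 ± 0.36, adjusted p = 2.71e-07). Ciita, the co-activator that class II promoters need, stood at 502, 480.3, 503 and 348 CPM in spleen and 2.57, 7.38, 9.09 and 7.60 in control libraries (log2 6.10 ± 0.50, adjusted p = 2.52e-08). Both genes were present in control libraries, and control replicate 1 was the lowest of its group for both genes. H2-Eb2 differed most (162 to 220.2 against at most 0.150 CPM, log2 10.90 ± 0.37). H2-DMb2 and H2-Ob, of the peptide exchange machinery, were higher by log2 5.01 and 3.19, and H2-DMa and H2-DMb1 by 0.86 and 0.88. Per kilobase of exon, Cd74, the invariant chain, was the most abundant gene among those higher by a log2 of at least 2, antigen receptor segments left out, with 5086 CPM per kilobase in spleen and 491 in control libraries. The lower gene was Ctss, the protease that cuts the invariant chain, at 743 to 950.0 CPM in spleen against 6319 to 7118 in control libraries (log2 -2.95 ± 0.12, adjusted p = 3.01e-12), and Rfxank and Rfxap were the uncalled ones. Dendritic cells, B cells and macrophages all carry class II, and the B cell and conventional dendritic cell markers above were also higher in spleen. Among spleen libraries, replicate 4 was the lowest in the class II score (8.40) and the conventional dendritic cell score (6.03). The same library was the highest in the B cell score (8.98). Among control libraries, replicate 1 was lowest in both the class II and the border macrophage list, and the part of these other cells in the result was not tested.

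The class II promoters are shown because their genes moved together and share a known element, the Y box, bound by nuclear factor Y. Sequences are from RefSeq on GRCm38.p6 and run 5′ to 3′ on the gene's strand from 250 bases before the start site to 50 after it. The letters CTGATTGG, searched on both strands, are in capitals. Promoters of 12 of the 16 genes were found in the table, and 4 of these held the letters (H2-Aa, H2-Eb1, H2-Eb2 and H2-Oa), against 4.31% of 27025 promoters, one per gene.
H2-Aa: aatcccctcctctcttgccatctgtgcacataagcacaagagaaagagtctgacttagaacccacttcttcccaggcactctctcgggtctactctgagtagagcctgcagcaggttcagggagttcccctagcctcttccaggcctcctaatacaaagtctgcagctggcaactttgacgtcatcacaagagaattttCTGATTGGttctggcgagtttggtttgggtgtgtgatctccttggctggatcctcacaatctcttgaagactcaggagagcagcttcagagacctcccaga
H2-Eb1: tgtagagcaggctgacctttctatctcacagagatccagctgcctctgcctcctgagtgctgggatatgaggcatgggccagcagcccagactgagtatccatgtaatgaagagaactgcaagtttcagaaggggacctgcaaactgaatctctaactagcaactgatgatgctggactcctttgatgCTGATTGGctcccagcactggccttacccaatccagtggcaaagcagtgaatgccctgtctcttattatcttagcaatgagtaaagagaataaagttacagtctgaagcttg
H2-Oa: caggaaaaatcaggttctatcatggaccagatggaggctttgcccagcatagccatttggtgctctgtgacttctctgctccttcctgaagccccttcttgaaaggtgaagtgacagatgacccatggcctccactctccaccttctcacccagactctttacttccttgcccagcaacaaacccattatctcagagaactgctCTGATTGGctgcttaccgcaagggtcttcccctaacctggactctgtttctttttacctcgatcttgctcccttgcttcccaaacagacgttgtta
The first lies at chr17:34287774-34288073 on the minus strand, the second at chr17:34305617-34305916 and the third at chr17:34092129-34092428, both on the plus strand. The letters began 51, 62 and 46 bases before the start site, in the forward direction in each. H2-Eb1 stood at 2369 to 4125 CPM in spleen and 184 to 444 in control libraries, and H2-Oa at 150.5 to 248 against 33.1 to 41.5. H2-Ab1, the class II beta chain, had 1324 CPM per kilobase in spleen, between H2-Eb1 with 1749 and H2-Aa with 1218. A match is a description of the letters and says nothing of what binds there in these cells.

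Class I presentation differed less. Of 18 genes, 11 were higher and 3 lower, with a median log2 difference of 0.67. Nlrc5, the class I co-activator, was at 185, 236, 214 and 170.0 CPM in spleen and 15.6, 21.1, 21.7 and 21.1 in control libraries (log2 3.34 ± 0.15, adjusted p = 8.94e-12). The immunoproteasome subunit Psmb9 (log2 1.93 ± 0.16) and the peptide transporter Tap1 (log2 1.90 ± 0.13) followed. H2-T22, a class I gene with close copies, was higher by log2 1.73. The endoplasmic reticulum chaperones Canx, Calr and Pdia3 were the lower genes (log2 -0.99, -0.71 and -0.73), and B2m was not called. The call of Calr was lost without spleen replicate 3 (log2 -0.60). Of 18 costimulation and checkpoint genes tested, 10 were higher and 6 lower. Cd40 was at 64.6, 62.3, 70.6 and 47.9 CPM in spleen and 4.75, 2.10, 2.37 and 5.32 in control libraries (log2 4.08 ± 0.29, adjusted p = 2.79e-09). Pdcd1lg2, the gene of PD-L2, was at 10.9 to 16.3 CPM in spleen and had no read in control libraries. Cd200 was higher by log2 5.94, and Tnfsf4, the OX40 ligand, was at 1.59 to 2.13 CPM in spleen with 1 read in control libraries. The checkpoint ligand gene Vsir ran the other way (221 to 325 against 2973 to 3273 CPM, log2 -3.54 ± 0.13), as did Nectin2 (log2 -4.40 ± 0.16), and Cd80 was not called.

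Chemokine receptors were mostly higher in spleen. Of 18 chemokine and migration receptors, 13 were higher and 4 lower (median log2 2.69). Cxcr5, which draws cells to B cell follicles, was at 146, 141, 156 and 162 CPM in spleen libraries, and Ccr3 at 326, 183, 222 and 293 against 2.92, 3.79, 2.53 and 1.56 (log2 6.56 ± 0.44, adjusted p = 2.13e-09). The lower genes included Cx3cr1, the decoy receptor gene Ccrl2 (log2 -4.39 ± 0.27) and Gpr183 (log2 -2.19 ± 0.18). Among 16 integrins, 5 were higher and 7 lower. Itgad, the CD11d chain of red pulp macrophages, was at 499.9, 347, 477 and 486 CPM in spleen and 0.275, 0.282, 0.267 and 0.231 in control libraries (log2 10.72 ± 0.40, adjusted p = 1.58e-12). Itga4 and Itgb7, which form a gut homing pair, were higher by log2 5.28 and 5.55, and Itga6, Itgam and Itgb5 lower with -4.65, -4.56 and -4.54. Itgal, the CD11a chain, was higher by log2 5.86 and Itga5 lower with -2.09. Itgb2, the CD18 partner of CD11c, was at 540.1 to 745 CPM in spleen and 609.6 to 739 in control libraries and was not called (adjusted p = 0.391).

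Chemokine and cytokine genes were higher in control microglia in 19 of 25, with 6 higher in spleen (median log2 -2.24). Ccl3, a chemokine that draws in leukocytes, stood at 2.39, 1.93, 2.35 and 2.02 CPM in spleen and 1558, 762, 783 and 873 in control libraries (log2 -8.84 ± 0.39, adjusted p = 7.75e-12). Tnf was at 20.4, 18.6, 30.4 and 13.5 CPM in spleen and 942, 309, 343 and 485 in control libraries, and Il1a at 11.0, 7.25, 6.83 and 11.7 against 1282, 630.5, 662 and 739. Control replicate 1 was the highest of its group in each of these 3 genes, and the groups did not overlap. Tissue handling, described for brain only, cannot be told apart from cell type in the differences of this list. Ccl7, Ccl12 and Ccl2 differed by log2 -10.79, -10.57 and -9.32, with all spleen values under 0.298 CPM. Cxcl14 was at 1.36 to 2.51 CPM in control libraries and had no read in spleen. The higher genes included Ccl5 (103, 79.7, 151 and 36.5 CPM in spleen, log2 5.31 ± 0.51), Cxcl9 (log2 2.75 ± 0.67) and Ccl22 (log2 1.93 ± 0.31), a product of mature dendritic cells.

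Of 8 receptors for CSF, FLT3 ligand, KIT ligand and related factors, Flt3, Kit, Il3ra and Csf2rb were higher and Csf1r, Csf3r and Csf2rb2 lower. Csf1r stood at 1351, 942, 1214 and 1383 CPM in spleen and 12436, 12934, 12752 and 13735 in control libraries (log2 -3.41 ± 0.15, adjusted p = 4.8e-12). No TGF-beta gene was higher and 10 of 15 were lower (median log2 -1.59). Tgfbr1, the type I receptor, was at 106, 102, 110.4 and 108 CPM in spleen and 2381, 2301, 2229.9 and 2027 in control libraries (log2 -4.39 ± 0.13, adjusted p = 7.37e-14). The pathway's inhibitor genes Pmepa1, Ski and Smad7 were lower, with log2 -6.33, -3.68 and -3.41, whereas Smad4 and Nrros were not called. Smad4 passed the test as higher without spleen replicate 4 (log2 0.37, adjusted p = 0.0286) or without control replicate 1 (log2 0.36, adjusted p = 0.0465). Of 17 Notch genes, 4 were higher and 10 lower, with Dtx1 and Dtx4 at the ends (log2 8.26 and -4.50), and Notch2 was higher by only 0.49. Nrarp, Hes1 and Notch1 were lower, with log2 -2.39, -2.26 and -2.20, and the ligand gene Jag1 higher by 2.88. Of 13 purinergic genes, 5 were higher and 7 lower. Behind P2ry12, the ectonucleotidase gene Entpd1 (log2 -2.57 ± 0.14), P2rx7 (log2 -3.09 ± 0.13) and Adora3 (log2 -5.64 ± 0.22) were lower, while Nt5e (log2 7.78 ± 0.73) and Adora2a (log2 6.32 ± 0.41) were higher. The receptor gene P2ry13 was lower, with log2 -4.01, and Adora1 was at 2.13 to 3.52 CPM in control libraries with 1 read in spleen.

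**Figure D4:**
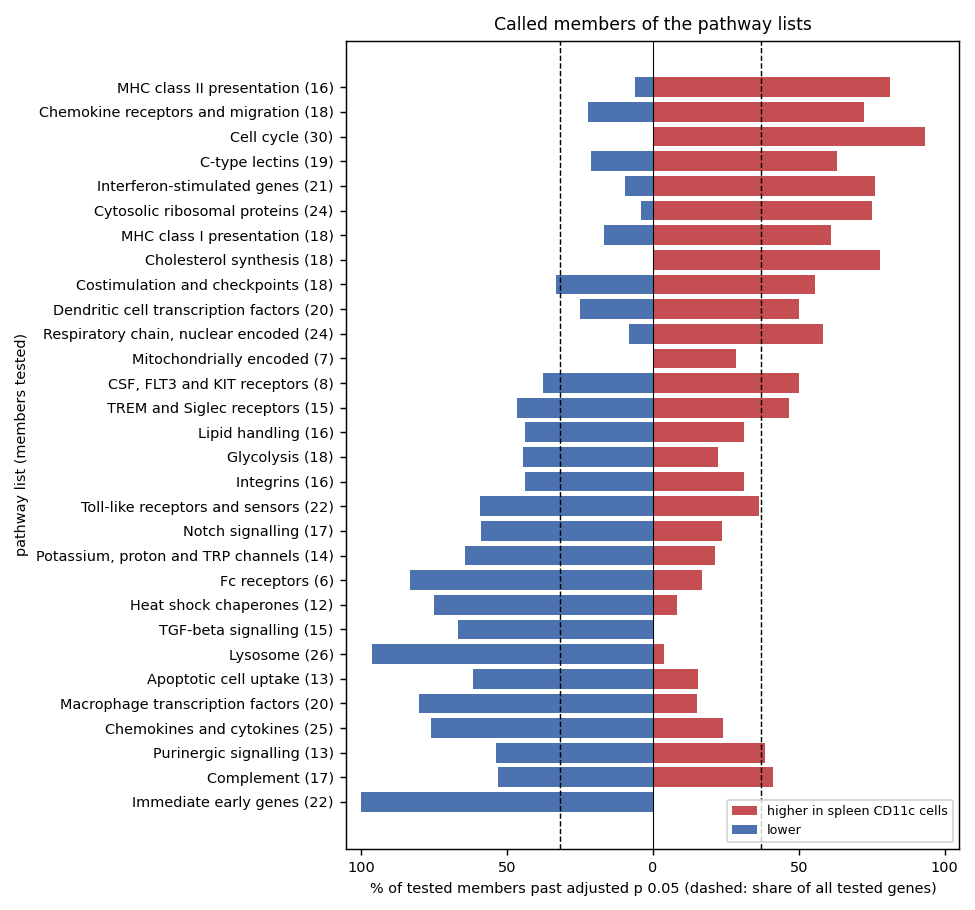
Share of tested members called higher (red, to the right) or lower (blue, to the left) in spleen CD11c cells for 30 pathway lists, ordered by median log2 difference; dashed lines mark 37.1% and 31.7%, the shares over all tested genes. Immediate early genes (22 of 22 lower) and lysosome genes (25 of 26 lower) reach farthest to the left and cell cycle genes (28 of 30 higher) to the right.

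Genes for degrading material in lysosomes were lower in spleen CD11c cells. Of 26 lysosome genes, 25 were lower and only Lipa, the acid lipase, was higher (log2 0.55 ± 0.21, adjusted p = 0.0254). The median log2 difference was -1.69. Ctsd, the aspartic protease cathepsin D, stood at 415, 294, 303 and 451 CPM in spleen and 5864, 6978, 7005 and 6814 in control libraries, and the groups did not overlap (log2 -4.19 ± 0.22, adjusted p = 6.48e-11). The cathepsin genes Ctsf and Ctsl were lower, with log2 -4.99 and -4.53, and Ctsb and Ctsh by only -0.77 and -0.37. The calls of Ctsb, Ctsh and Lipa were each lost without single libraries: Ctsb without spleen replicate 2 or 3 or control replicate 2 or 4 (log2 -0.72 to -0.67), Ctsh without spleen replicate 4 or control replicate 2 or 4 (log2 -0.31 to -0.28), and Lipa without spleen replicate 1 or control replicate 1 (log2 0.48 and 0.51). Cst3, a secreted cathepsin inhibitor, was the most abundant gene per kilobase of exon among those lower by a log2 of at least 2, with 12584 CPM per kilobase in control and 427 in spleen libraries.

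Of 13 genes for the uptake of dying cells, 8 were lower and 2 higher. Axl was higher (834, 543, 647 and 717 CPM in spleen, 61.4, 80.0, 94.5 and 115 in control, log2 2.97 ± 0.19, adjusted p = 5.16e-10) and its sister kinase Mertk lower (log2 -1.90 ± 0.13, adjusted p = 1.46e-09). The bridging ligands Pros1 and Gas6 were lower, with log2 -6.34 and -5.63, and the scavenger receptor Stab1 by -9.39. Lrp1, a large endocytic receptor, was lower, with log2 -2.11, and Timd4, a receptor for phosphatidylserine, higher by 1.99. Of 16 lipid genes, 5 were higher and 7 lower. Trem2, a lipid sensing receptor, was at 0.247 to 0.531 CPM in spleen and 1095 to 1393 in control libraries (log2 -11.64 ± 0.23). Apoe overlapped at no library, at 768, 614, 859 and 1501 CPM in spleen and 1559, 2871, 3115 and 3686 in control libraries, although spleen replicate 4 came close to control replicate 1. Abca1, which exports cholesterol, and the scavenger receptor gene Msr1 were lower, with log2 -2.36 and -2.18, and Fabp5, a fatty acid carrier, higher by 3.66.

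Of 17 complement genes, 7 were higher and 9 lower. The 3 chains of C1q were all lower, with C1qa at 549, 319.6, 379.8 and 520.0 CPM in spleen and 3606, 4444, 4363 and 4762 in control libraries (log2 -3.28 ± 0.18, adjusted p = 1.16e-10). C1qb stood at 4448 CPM per kilobase in control libraries, beside 4128 for C1qa. C5ar1, the C5a receptor, was lower, with log2 -4.82. C3ar1, the C3a receptor, was at 0.744 to 1.36 CPM in spleen and 428 to 820.2 in control libraries, with control replicate 1 highest. Cfp, the positive regulator properdin, was higher (log2 4.54 ± 0.25), as were Cd55 (log2 4.87 ± 0.42) and C3 (log2 2.74 ± 0.41).

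Of 22 Toll-like receptors and sensors, 8 were higher and 13 lower. Cd14, Tlr2 and Nlrp3 were lower (log2 -3.84, -3.09 and -2.91). Tmem173, the gene of STING, was lower, with log2 -2.08, and the nucleic acid sensor gene Zbp1 higher by 2.29. Tlr11, which senses profilin and is used by type 1 dendritic cells, was at 60.7, 49.2, 64.2 and 25.1 CPM in spleen and 0.550, 1.38, 0.946 and 1.16 in control libraries (log2 5.63 ± 0.35, adjusted p = 6.07e-10). Tlr9 did not pass (adjusted p = 0.583). Of 6 Fc receptor genes, 5 were lower, led by Fcgr1 and Fcgr3 (log2 -3.41 and -3.38), and Fcgr4 was higher (log2 1.71). Fcgr2b and Fcer1g were lower with -1.36 and -1.20. Of 19 C-type lectins, 12 were higher and 4 lower. Ly75, the uptake receptor DEC-205, was at 36.9, 51.4, 55.6 and 39.6 CPM in spleen libraries and at most 0.452 in control libraries, and Clec5a ran the other way (log2 -5.47 ± 0.22). Cd207, langerin, was higher by log2 4.23. Without control replicate 1 that difference was 5.74. Clec7a and Mrc1 overlapped between the groups and were not called. Of 15 TREM and Siglec genes, 7 were higher and 7 lower. Siglecg and Cd22, which damp B cell receptor signals, were higher by log2 5.69 and 4.99, and Cd33 and Siglech lower with -4.84 and -7.07. Trem3 was at 3.13 to 5.93 CPM in spleen with 1 read in control libraries.

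Interferon-stimulated genes were higher in 16 of 21 and lower in 2, by small amounts (median log2 0.98). Oas3 was at 23.0, 13.8, 9.84 and 10.01 CPM in spleen and 1.30, 3.02, 2.98 and 6.99 in control libraries (log2 1.99 ± 0.40, adjusted p = 0.000348). Irf7 was at 127, 94.5, 78.7 and 61.4 against 15.7, 27.2, 24.8 and 37.3 CPM (log2 1.78 ± 0.23, adjusted p = 4.79e-06). Ifit1 and Ifi44 were higher by log2 1.77 and 1.75. In Oas3 and Irf7 spleen replicate 1 was the highest of its group and control replicate 1 the lowest. Groups did not overlap for 10 of the 21 genes on the higher side, beside 38.4% over all genes. Cxcl10 and Bst2 were the 2 lower genes (log2 -2.23 ± 0.33 and -0.95 ± 0.19).

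Immediate early genes, which respond within minutes to stimuli and to tissue handling, were lower in spleen CD11c cells in 22 of 22 (median log2 -3.79). Fos stood at 22.4, 14.5, 8.62 and 47.7 CPM in spleen replicates 1 to 4 and 1632, 2467, 1968 and 1856 in control replicates 1 to 4 (log2 -6.41 ± 0.49, adjusted p = 1.1e-08). Without spleen replicate 4, the highest of its group, that difference was -7.03. Atf3 stood at 9.78, 7.56, 8.15 and 6.62 CPM in spleen and 3346, 2254, 1789 and 1970.5 in control libraries (log2 -8.19 ± 0.25, adjusted p = 9.85e-14). Jun (log2 -6.79 ± 0.38), Egr1 (log2 -6.93 ± 0.37) and Fosb (log2 -7.97 ± 0.28) were lower as well. No library overlapped the other group in any of the 22, and the smallest difference was that of Egr3 (log2 -1.39 ± 0.31). In the ischemic brain sorts, means were 875 CPM of Fos in CD11c cells and 1006 in microglia.

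The promoters of 3 of these genes are shown because they carry a known stimulus-response element, the core of the cyclic AMP response element, with the letters TGACGT in capitals (searched on both strands, so that its reverse, ACGTCA, counts too, and the full palindrome joins both). The table held a promoter for 19 of the 22 genes and 5 of these carried the letters (Fos, Nr4a3, Atf3, Dusp1 and Btg2), against 7.64% of 27025 promoters.
Fos: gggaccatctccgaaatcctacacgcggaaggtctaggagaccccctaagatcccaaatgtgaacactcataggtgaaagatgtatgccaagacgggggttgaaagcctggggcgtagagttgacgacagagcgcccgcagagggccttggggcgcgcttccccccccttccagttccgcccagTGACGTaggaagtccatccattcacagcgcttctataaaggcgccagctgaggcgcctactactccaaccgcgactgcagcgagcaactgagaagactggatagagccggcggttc
Atf3: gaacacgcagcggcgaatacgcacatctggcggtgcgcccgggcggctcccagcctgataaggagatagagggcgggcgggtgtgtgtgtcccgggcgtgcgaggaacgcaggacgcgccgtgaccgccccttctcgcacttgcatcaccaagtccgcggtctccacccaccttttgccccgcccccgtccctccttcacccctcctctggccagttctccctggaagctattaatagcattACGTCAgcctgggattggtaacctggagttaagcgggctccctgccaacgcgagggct
Dusp1: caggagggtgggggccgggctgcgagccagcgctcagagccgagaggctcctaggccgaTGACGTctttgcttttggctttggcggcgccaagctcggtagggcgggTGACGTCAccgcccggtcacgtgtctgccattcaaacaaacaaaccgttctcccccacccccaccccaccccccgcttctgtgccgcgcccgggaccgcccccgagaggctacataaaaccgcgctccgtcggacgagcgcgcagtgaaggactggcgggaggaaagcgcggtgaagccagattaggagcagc
They lie at chr12:85473640-85473939 on the plus strand, chr1:191183284-191183583 on the minus strand and chr17:26508423-26508722 on the minus strand, on GRCm38.p6 in RefSeq. Fos held 1 match, Atf3 held 1 on the reverse strand and Dusp1 held 3, of which 2 overlap. Dusp1, a phosphatase that ends kinase signals, stood at 32.5, 25.9, 34.4 and 44.2 CPM in spleen and 657, 976, 789 and 834 in control libraries (log2 -4.57 ± 0.21, adjusted p = 1.12e-11).

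Heat shock chaperones were lower in 9 of 12 and higher in 1. Hspa1a, an inducible HSP70 gene, was at 0.0995, 0.0850, 0.186 and 0.486 CPM in spleen and 198, 322, 622 and 569.6 in control libraries (log2 -10.95 ± 0.83, adjusted p = 1.41e-08). Without spleen replicate 4 it was -11.70. Its near-identical neighbour Hspa1b was at 0.186 to 0.926 against 182 to 761 CPM, and the split between them is uncertain. Control replicate 1, highest in Tnf and Il1a, was the lowest control library in both. Constitutive chaperones differed less, with Hspa8 lower (log2 -1.31 ± 0.13) and Hsp90ab1 not called. Hspb1 and Bag3, both stress inducible, were lower, with log2 -4.65 and -2.68, and the mitochondrial chaperone gene Hspd1 was the higher one (log2 0.44). The call of Hspd1 was lost without spleen replicate 1 or 4 or control replicate 1, 2 or 4 (log2 0.29 to 0.48). The brain protocol has an enzymatic digestion, the spleen protocol is not given in the sources used here, and handling cannot be told apart from cell type for these genes.

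**Figure D5:**
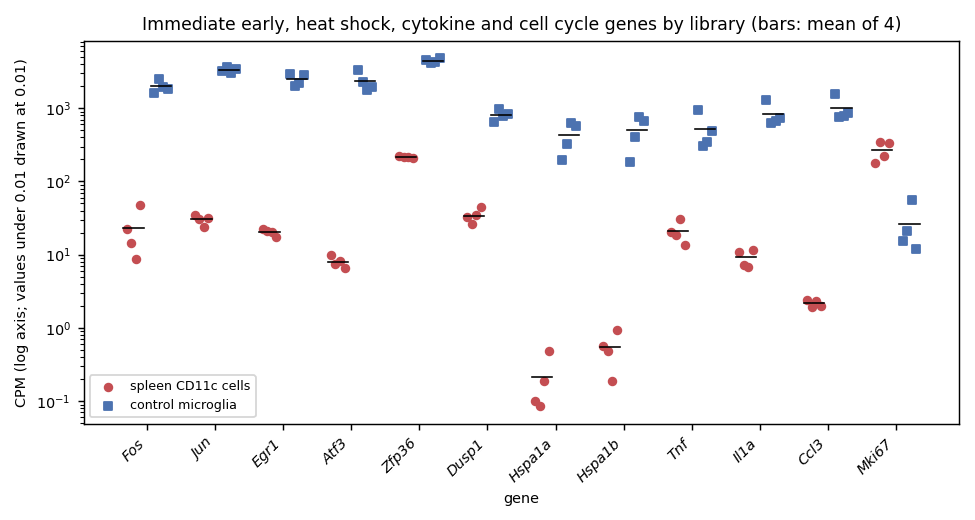
CPM on a log axis of immediate early, heat shock and cytokine genes and the proliferation gene Mki67 in each library, with circles for spleen CD11c cells, squares for control microglia and bars for group means. The 11 genes left of Mki67 lie lower in all spleen libraries, with Hspa1a under 0.487 CPM there, and Mki67 lies higher, with control replicate 3 at 55.3 CPM above its group.

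Cell cycle genes were higher in spleen CD11c cells in 28 of 30, and none was lower (median log2 2.67). Mki67 was at 176, 348, 226 and 335 CPM in spleen and 15.6, 21.3, 55.3 and 11.9 in control libraries (log2 3.38 ± 0.53, adjusted p = 3.86e-05). Rrm2, which makes deoxynucleotides, was at 56.1, 83.4, 50.5 and 92.7 CPM in spleen and 1.35, 2.84, 8.06 and 1.36 in control libraries (log2 4.35 ± 0.59, adjusted p = 1e-05). Without control replicate 3 the differences of Mki67 and Rrm2 were 4.09 and 5.28. Ccne1 and Birc5, which act at the start and the end of the cycle, were higher by log2 4.03 and 3.26. Without control replicate 3 they were 4.73 and 3.97. Control replicate 3 was the highest control library in Mki67 and Rrm2, and spleen replicates 2 and 4 the highest of the spleen. Pcna and Mcm3 did not pass the test (adjusted p = 0.697 and 0.078).

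Ribosomal protein genes were higher in 18 of 24 (median log2 0.83) and nuclear-encoded respiratory chain genes in 14 of 24 (median log2 0.31). Rps19 was at 172 to 204 CPM in spleen and 48.0 to 69.1 in control libraries (log2 1.64 ± 0.16). Rpl27 was higher too (log2 1.27), and Rpl10a was lower (log2 -0.56). Among respiratory genes Cox5a, Ndufa1, Cox6c and Ndufa4 led (log2 1.11, 1.07, 1.01 and 1.01), with Atp5g1 and Ndufa9 lower (log2 -0.48 and -0.46). The call of Atp5g1 was lost without any 1 library other than spleen replicate 4 (log2 -0.51 to -0.41). With scaling by library totals the calls of Rpl10a and Ndufa9 were lost (log2 -0.32 and -0.23, adjusted p = 0.129 and 0.0564). Of 7 mitochondrially encoded genes tested, mt-Nd5 and mt-Co1 were higher (log2 0.60 and 0.59) and none was lower. Many of these genes have processed copies elsewhere in the genome that can take reads from them, so their levels are uncertain. Cholesterol synthesis was higher in 14 of 18 genes and lower in none. Srebf2, the master regulator of that pathway, was at 268, 291, 255 and 189 CPM in spleen and 54.5, 58.0, 59.5 and 67.1 in control libraries (log2 2.07 ± 0.13, adjusted p = 7.12e-10), and Sqle was higher as well (log2 2.82 ± 0.26). Fdps was higher by log2 1.79. Of 18 glycolysis genes, 4 were higher and 8 lower, with Pfkp (log2 3.73 ± 0.21) and Slc2a3 (log2 2.82 ± 0.28) above and Hk2 (log2 -2.93 ± 0.13) and Slc16a3 (log2 -2.75 ± 0.29) below. Hk3 and Pfkfb3 were also lower (log2 -2.02 and -1.71). Of 14 channel genes, 3 were higher and 9 lower. Kcnn4, a calcium-activated potassium channel of lymphocytes and macrophages, was at 50.2 to 74.3 CPM in spleen against 2.87 to 5.76, and Kcnma1 was lower (log2 -7.78 ± 0.54). Without spleen replicate 3 the differences of Kcnma1 and Kcnk12 were -8.95 and -7.16. Kcnk12, Trpm4 and Kcnk13 were lower, with log2 -6.48, -2.56 and -2.50, and Kcnj10 higher with 122 to 188 against 16.7 to 20.7 CPM.

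Ranked over all genes, the 10 largest differences in each direction (at least 20 CPM in the higher group, no overlap, antigen receptor segments and predicted genes left out) are named here as the rule set them. Of 5651 eligible genes, the 10 largest on the spleen side included Cr2, Ngp, Car1, Ms4a1, Blk, Jchain, Ackr2, S100a9 and Slpi. Cr2, the complement receptor of follicular and marginal zone B cells, stood at 429, 240.3, 453 and 422 CPM in spleen, and the 4 control libraries held 2 reads in all. Its log2 ratio of summed reads was 14.93 with an exact 95% Poisson counting interval of 13.08 to 17.97. Ackr2, a scavenging chemokine receptor, had no read in control libraries and 34.1, 33.4, 34.7 and 32.6 CPM in spleen, the narrowest spread of those named. Against a floor of 3 reads over the control group that is a log2 bound of 10.83. Car1, carbonic anhydrase 1 of red cells, stood at 55.5, 19.2, 4.68 and 124 CPM in spleen, highest in replicate 4 and lowest in replicate 3.

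On the control side the 10 largest were Gpr165, Adamts1, Csmd3, Adamts16, Thrsp, Ttr, Sall1, Mdfi, Fcrls and Sparc. Sparc, a matrix glycoprotein that microglia make in quantity, was at 0.871, 0.744, 0.557 and 0.648 CPM in spleen and 3966, 4884, 4979 and 4613 in control libraries (log2 -12.68 ± 0.27, adjusted p = 3.57e-15). Fcrls, an Fc receptor-like protein of microglia, was at 0.340 to 0.672 CPM against 2949 to 3749.6. Ttr, transthyretin of the choroid plexus, was at 59.4, 156, 338 and 126 CPM in control libraries. The genes that varied most among control libraries were Enpp2, Ttr, Gla, Dusp8 and Top2a. Enpp2, autotaxin, which the choroid plexus also makes, was at 22.9, 65.0, 154 and 54.0 CPM in control libraries and 4.18 to 9.01 in spleen. The genes that varied most among spleen libraries were Alas2, Hba-a2, Hbb-bt, Hba-a1 and Hbb-bs, all of red cells.

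Next to CD11c cells sorted from ischemic brain, the spleen population held more transcripts of B cells and splenic macrophages. Itgax was at 478 to 954 CPM in brain CD11c libraries and did not differ past the threshold between the 2 CD11c sorts (log2 brain minus spleen 0.40, adjusted p = 0.234). Of 16 B cell genes all 16 were lower in brain than in spleen CD11c cells, where 33.0% of all tested genes were lower and 31.2% higher. Splenic macrophage genes were lower in brain in 13 of 15, and conventional dendritic cell genes in 11 of 20 and higher in 3. Homeostatic microglia genes were higher in brain CD11c cells in 20 of 20. Flt3 stood at 116 to 404 CPM in brain CD11c libraries (log2 brain minus spleen 0.31, adjusted p = 0.472), Ms4a1 at 0.213 to 4.11 and Spic at 0.886 to 1.68. H2-Aa stood at 4153 to 11276 CPM there, against 3292 to 5573 in spleen, and was not called between them (adjusted p = 0.0709). This contrast shares the spleen libraries with the main one, so the 2 sets of values are not independent. Spleen replicate 4 and brain CD11c replicate 1 carry the same number in their titles. Spleen replicates 2, 3 and 4 also share title numbers with ischemic microglia replicates 2, 3 and 1, which were sorted by the other reporter. The sources used here do not say whether libraries with the same number came from the same animal, nor whether the spleen donors had ischemia.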

How the data were processed

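RNA of sorted cells was sequenced as bulk libraries with a stranded mRNA kit, per the labels' protocols. The deposited table holds whole-number read counts per gene and library, not normalized. FastQC 0.11.5, STAR 2.5.3a and GRCm38 are named in the submitters' processing notes. No source used here names the counting program, its strand setting or the annotation release, so overlapping, antisense and near-identical genes are uncertain. Symbols and exon lengths came from GENCODE M21 and matched 50376 of 50600 gene identifiers.

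Groups came from the sample labels, 4 libraries each. All 16 libraries entered 1 edgeR 4.0.16 quasi-likelihood fit in R 4.3.3 (TMM scaling, low-count filter), with 1 coefficient per group. A prior count of 2 was used for log2 CPM values only, and the fit kept its own default. The script was tested on simulated data for this contrast: over 15876 genes, 52% of genes changed by a log2 of 1 and 84% of those changed by 2 were recovered, and 10 of 15677 unchanged genes were called. With depths of 34087982 to 48245164 counts, 3 counts over a group, used as the floor, equal 0.0168 CPM in spleen and 0.0185 in control libraries. Intervals and floors cover counting error only.

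The members and the 50 gene lists were chosen with earlier results of these data known. Named were the 10 largest differences each way and the 6 most abundant genes per kilobase each way that differed by a log2 of at least 2 (both with adjusted p under 0.05, at least 20 CPM, no overlap), up to 4 called members of each list in its main direction and 2 in the other, and the 5 most variable genes of each group. Other list members were named for their role with their values known. Some genes that the rule selects are not reported here. Alternatives were other scalings, filters, DESeq2 1.42.0, limma-voom (limma 3.58.1), glmTreat, leaving out each library and, added after seeing the data, leaving out immunoglobulin genes or spleen replicates 1 and 4.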

Additional observations from a re-analysis of the deposited data

Results flagged for a closer look

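In a group of 4 libraries, a value was marked when its gap to the nearest of the others was over the 95% critical share (Dixon) of the whole range of the group. Gaps and ranges were taken on the log2 CPM scale, while the gene values below are printed as CPM. The named genes and the list scores were examined this way in both groups, and chance marks about 1 in 20 groups. Of 705 groups of values examined, 46 held a value so marked, and 29 of these were values of control replicate 1. In spleen replicate 2 the CPM was lowest and far from the other 3 libraries, with 29.4 for Cd33, 240.3 for Cr2 and 347.3 for Itgad. In spleen replicate 4 the CPM was lowest and far from the other 3 libraries, with 348.5 for Ciita, 28.9 for Clec9a and 10.7 for Il3ra. In spleen replicate 1 the CPM was highest and far from the other 3 libraries, with 67.9 for Cox5a. In spleen replicate 3 the CPM was highest and far from the other 3 libraries, with 0.99 for Cox6a2 and 22.5 for Nr4a3. In spleen replicate 1 the CPM was lowest and far from the other 3 libraries, with 587.3 for Ms4a1. In spleen replicate 4 the CPM was highest and far from the other 3 libraries, with 6.44 for Rpl27. In spleen replicate 2 the list score (mean log2 CPM) was lowest and far from the other 3 libraries, with -1.14 for Oligodendrocytes. In control replicate 1 the CPM was highest and far from the other 3 libraries, with 0.1 for Alas2, 2.15 for Ccr7, 509.9 for Gpr183, 0.375 for Hbb-bs, 834.8 for Mef2a and 728.4 for Pfkfb3. In control replicate 2 the CPM was lowest and far from the other 3 libraries, with 41.2 for Bag3 and 672.5 for Itgam. In control replicate 1 the CPM was lowest and far from the other 3 libraries, with 1018.6 for Calr, 11.8 for Cd38, 9.02 for Cfp, 2.57 for Ciita, 3608.0 for Ctsb and 5864.4 for Ctsd. The lowest of the group in control replicate 1 were also 109.9 for F13a1, 15.2 for Fcgr4, 18.1 for H2-T22, 330.8 for Hspa8, 0.75 for Ifi44 and 18.3 for Lyve1, in CPM. The lowest of the group in control replicate 1 were also 290.5 for Mrc1, 15.6 for Nlrc5, 1251.7 for Stab1, 78.5 for Tap1, 1.27 for Tfec and 3.97 for Timd4, in CPM. In control replicate 4 the CPM was highest and far from the other 3 libraries, with 469.6 for Cebpa and 3.03 for Jag1. In control replicate 3 the CPM was lowest and far from the other 3 libraries, with 38.6 for Rpl10a. In control replicate 1 the list score (mean log2 CPM) was lowest and far from the other 3 libraries, with 5.33 for Border macrophages, 5.78 for MHC class II presentation, 7.74 for Fc receptors and 3.22 for Interferon-stimulated genes. In control replicate 1 the list score (mean log2 CPM) was highest and far from the other 3 libraries, with -2.81 for Erythroid cells.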

How the results depend on the processing

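The counts of higher and lower genes stayed within 1.5 times of the reported ones under every alternative run. They were 7406 and 4184 with library totals, 6101 and 5407 with DESeq2, 6171 and 5238 with limma-voom, 5308 and 4496 with a filter of 1 CPM in 4 libraries, and 6396 and 6021 with no filter. Leaving out 1 library at a time gave 5810 to 6188 higher and 4842 to 5039 lower genes. Requiring a 2-fold difference in the test itself (glmTreat) gave 3122 and 2606. With library totals 63.9% of calls were higher, against 53.9%, and the median of all genes was 0.34. A list median counted as moved if its sign changed or it shifted by at least the larger group SD of the list score. That held for 27 of 50 list medians with library totals and 16 of 50 without spleen replicates 1 and 4. None of the named genes that were called reversed, and 17 lost their call under at least 1 alternative. Another 6 that were not called gained a call: B2m, Cd80, Id2, Mcm3 and Smad4 with library totals (log2 0.36, 0.48, 0.77, 0.63 and 0.54), Batf without control replicate 1 (log2 0.69), Id2 also with limma-voom (log2 0.63), Mcm3 and Smad4 also in a fit of the 8 libraries alone (log2 0.33 and 0.23), and Smad4 also without immunoglobulin genes (log2 0.32). The call of Csf2rb was lost without spleen replicates 1 and 4 (log2 0.36), and those of Alas2, Hba-a1, Hba-a2, Hbb-bt, Chil3 and Ttr with limma-voom. The cause was not tested. No paired analysis was possible because the labels give the spleen and control libraries no shared replicate number. Depth limits genes near the floor, whose fitted differences depend on the default prior count of the fit.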
